A study of Homo sapiens with 15 samples.

Results

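The 72 genes described here encode proteins of the cytosolic ribosome. They were taken by symbol alone from the 19229 autosomal protein-coding genes of GENCODE release 44 on GRCh37 (hg19), as RPL for the large subunit (43 genes) or RPS for the small subunit (29 genes) with a number, the stalk proteins RPLP0, RPLP1 and RPLP2 included. The RPS6K kinases, read-through genes with a hyphen in the symbol and L-suffixed paralogues were left out. They were measured by Pt-exo-seq, in which a platinum adduct on DNA stops an exonuclease, as read counts in 1000 bp windows along the genome. The cell lines PEO1 and PEO4 came from the same ovarian cancer patient, both after chemotherapy with platinum. PEO1 was isolated before and PEO4 after the high-grade serous tumour became clinically resistant to platinum. Each of 5 groups had 3 libraries: PEO1 without drug, PEO1 in 16 µM cisplatin, PEO4 without drug, PEO4 in 16 µM and PEO4 in 32 µM, with an exposure of 5 h. The doses of 16 µM in PEO1 and 32 µM in PEO4 were chosen to leave similar amounts of platinum on DNA. Each state is represented by 1 line, and nothing says that the 3 libraries of a group came from separate cultures, so the p-values may measure technical spread only. The untreated libraries received no platinum, and their counts are the background of the method.

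A ribosome is built from a small subunit, which reads the mRNA, and a large subunit, which joins the amino acids and carries a stalk that recruits translation factors. The genes for its proteins are short, lie scattered over the chromosomes and are transcribed at a high rate in dividing cells. Most have left processed pseudogenes, intronless copies of their mRNA elsewhere in the genome. Cisplatin binds purines and mostly links neighbouring guanines on a strand, and transcribed strands are repaired by a branch of excision repair that starts at stalled polymerases.

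Library totals ran from 27705392 to 56643611 reads. The genes, taken from 1 kb upstream of the gene start to the gene end, covered 828 windows, and 823 of these were kept. One by one, 71 of the genes could be measured. The gene windows held between 0.0238% and 0.0323% of the reads of a library, or 8.41 to 20.5 reads per window. RPL37A with 90 windows and RPS9 with 54 had the longest annotated spans. The median GC content of the gene windows was 47.2%, against 47.6% in the windows of their 50 kb flanks and 40.0% over the autosomes. GG and CC dinucleotides, the sites where cisplatin can link neighbouring guanines, began at 13.9% of positions in the gene windows, 14.5% in the flanks and 10.5% over the autosomes. The genes thus resembled their flanks in target sequence more than they resembled the genome, and they were compared with the flanks.

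The sequences just upstream of RPS15 and RPS21, the genes with the lowest and the highest count relative to their own flanks, are printed to show how the target dinucleotide is spread there. They are the 250 bases before the gene start in GRCh37, 5′ to 3′ on the plus strand, which is the strand of both genes, with every base of a GG or CC in capitals. RPS15, a protein of the head of the small subunit, lies at chr19:1438357-1440494, and its printed bases are chr19:1438107-1438356. RPS21, another small subunit protein, lies at chr20:60962159-60963576, and its printed bases are chr20:60961909-60962158.
RPS15: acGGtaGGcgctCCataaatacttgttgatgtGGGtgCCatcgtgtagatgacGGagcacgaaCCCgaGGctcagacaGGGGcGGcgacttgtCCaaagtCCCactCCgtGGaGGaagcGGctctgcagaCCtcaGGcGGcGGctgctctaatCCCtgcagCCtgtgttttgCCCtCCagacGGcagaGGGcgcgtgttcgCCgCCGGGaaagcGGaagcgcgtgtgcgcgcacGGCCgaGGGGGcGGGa
RPS21: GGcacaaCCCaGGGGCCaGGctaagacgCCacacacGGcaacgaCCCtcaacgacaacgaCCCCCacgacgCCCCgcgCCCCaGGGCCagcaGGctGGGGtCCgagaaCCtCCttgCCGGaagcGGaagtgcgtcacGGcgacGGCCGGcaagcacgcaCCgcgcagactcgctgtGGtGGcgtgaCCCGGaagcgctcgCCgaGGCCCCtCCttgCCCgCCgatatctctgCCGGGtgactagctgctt
RPS15 held 47 GG or CC dinucleotides in these bases and RPS21 held 57, with overlapping ones counted separately. The median was 43.5 over the 72 genes, with a range of 17 to 76, and 51 over 19225 protein-coding genes. Of the latter, 44.4% had as many as RPS15 or fewer and 63.0% as many as RPS21 or fewer, so neither sequence stood at an end of the range. The printed bases of RPS21 overlap an exon of a long non-coding gene by 148 bases. The upstream bases of RPL15 and RPS13, which come up in the response differences, overlap exons of the neighbouring genes NKIRAS1 and PIK3C2A by 250 and 193 bases and are not printed.

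Pooled over windows, so that long annotated spans counted most, the genes carried about as many reads as their flanks. With equal weight for each gene the ratios were lower, as given below. The pooled ratio is the log2 of the summed count of all gene windows over the count expected from flank windows of the same GC content. The 3 libraries of untreated PEO1 gave 0.036, 0.050 and 0.11 (mean 0.065 ± 0.039 SD, n = 3). Those of PEO1 at 16 µM gave -0.028, -0.0039 and -0.028 (-0.020 ± 0.014), each below all 3 untreated libraries of the line. Untreated PEO4 gave -0.022, -0.061 and -0.076 (-0.053 ± 0.028), also below every untreated PEO1 library. PEO4 at 16 µM gave 0.021, -0.045 and -0.10 (-0.043 ± 0.063) and PEO4 at 32 µM gave -0.030, -0.063 and -0.054 (-0.049 ± 0.017), and both overlapped untreated PEO4. The treated mean minus the untreated mean was -0.085 in PEO1, 0.010 in PEO4 at 16 µM and 0.0039 at 32 µM on the log2 scale. No p-value is given for a value pooled over chosen genes.

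**Figure D1:**
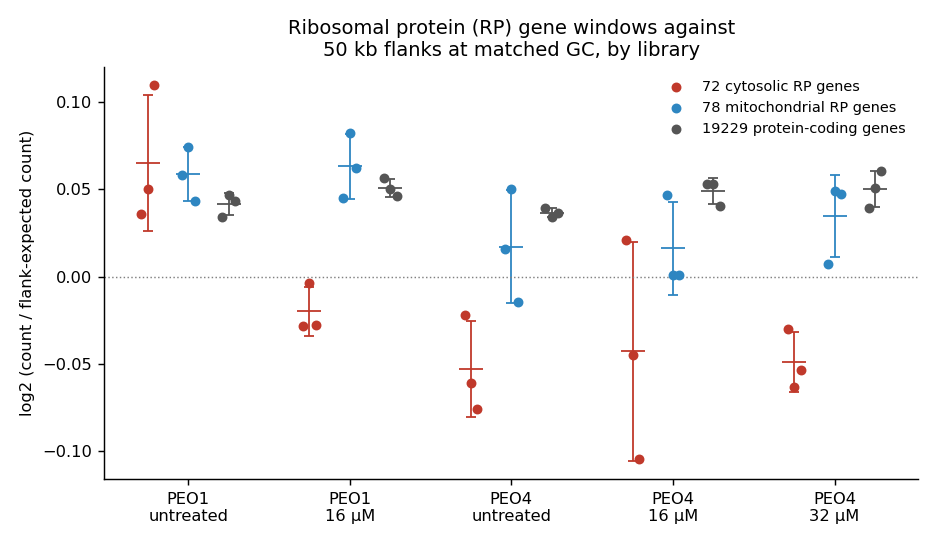
Log2 ratio of read counts to the count expected from 50 kb flanks at matched GC (vertical axis) in each of the 15 libraries (points), with the mean and SD of each group of 3 (bars), for the 72 cytosolic ribosomal protein (RP) genes, 78 mitochondrial RP genes and 19229 protein-coding genes. The cytosolic genes lie highest in untreated PEO1, between 0.036 and 0.11, and all but 1 of the other libraries lie below 0.

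Over all 19229 protein-coding genes the same ratio lay between 0.034 and 0.060 in every library, and treated minus untreated was 0.0093 in PEO1, 0.012 in PEO4 at 16 µM and 0.014 at 32 µM. The 78 mitochondrial ribosomal protein genes, which encode the separate ribosome of mitochondria, had 0.0045, -0.00086 and 0.018 in the same order. The 177 olfactory receptor genes of chromosome 11, a family used in sensory neurons, had -0.048, 0.029 and -0.0023. In PEO1 the treated libraries of the cytosolic genes, from -0.093 to -0.069 relative to the untreated mean, overlapped those of the olfactory receptor genes, from -0.076 to 0.00083. The large subunit genes had -0.10 in PEO1 and the small subunit genes -0.062. The 26 genes that hold genes of small nucleolar RNAs had -0.067 and the other 46 had -0.095.

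The level of the pooled ratio depended on how the genes were outlined and weighted. With the canonical transcript in place of the whole gene, untreated PEO1 was at -0.064, untreated PEO4 at -0.16 and the PEO1 difference with cisplatin at -0.032. With equal weight for each gene the values were -0.11, -0.20 and -0.050. Under both settings the treated and untreated PEO1 libraries overlapped, from -0.12 to -0.069 against -0.12 to 0.036 with canonical transcripts and from -0.18 to -0.14 against -0.15 to -0.077 with equal weights. The untreated lines overlapped with equal weights, and also with each gene set against its own flanks and the GC curve, where PEO4 minus PEO1 was -0.031 instead of -0.12. The PEO1 difference was below 0 under each of the 13 alternatives run, from -0.11 to -0.032.

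Relative to flanks of the same GC content, windows that hold exons had fewer reads than the other windows of the same genes. In the 409 windows with over 10% exon bases PEO1 had a ratio of -0.041 ± 0.035 untreated and -0.089 ± 0.041 with drug, while PEO4 had -0.19 ± 0.051 untreated, -0.17 ± 0.075 at the lower dose and -0.15 ± 0.034 at the higher (SD, n = 3). In the 414 windows with fewer exon bases the ratios were 0.16 ± 0.051, 0.044 ± 0.032, 0.070 ± 0.016, 0.073 ± 0.063 and 0.044 ± 0.047 in the same order. The exon windows were the lower ones in all 15 libraries. Over all protein-coding genes the group means lay between 0.0052 and 0.050 in exon windows and between 0.042 and 0.053 in the others. The exon windows were the lower ones in each group mean there too. Exon windows at the gene start were not separated from those further into the genes.

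**Figure D2:**
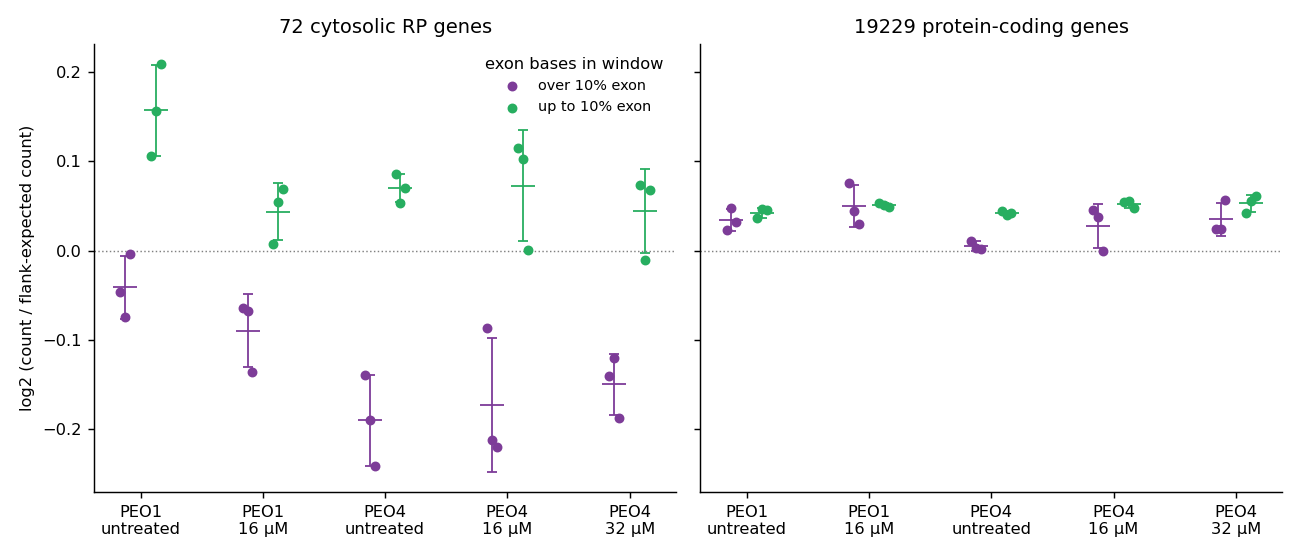
Log2 ratio to flanks at matched GC (vertical axis) for windows with over 10% and with up to 10% exon bases, in each library (points) with group mean and SD (bars), for the 72 cytosolic RP genes (left) and 19229 protein-coding genes (right). Exon windows of the RP genes lie below 0 in every library, down to -0.24 in untreated PEO4.

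A read from an exon that also exists as a pseudogene can align to either copy, and how such reads were treated is not given in the sources used here. The genes had a median of 12.5 annotated pseudogenes bearing their name, from 1 to 133, with the most for RPL21. In the 36 genes above this median the exon windows were at -0.13 ± 0.057 in untreated PEO1 and -0.23 ± 0.085 in untreated PEO4. In the other 36 they were at 0.058 ± 0.057 and -0.15 ± 0.061. The exon ratio was lower in the genes with more pseudogenes in the mean of each line. In untreated PEO4 the libraries overlapped, from -0.29 to -0.13 against -0.21 to -0.090. In windows with fewer exon bases the genes with more pseudogenes were at 0.12 ± 0.014 in untreated PEO1 and 0.097 ± 0.013 in untreated PEO4. There the other 36 were at 0.18 ± 0.095 and 0.052 ± 0.026. The part of pseudogenes in the result was not tested.

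In PEO4 the lowest counts lay in the first 2 kb of the genes. The first kilobase was at -0.38 ± 0.11 without drug, -0.29 ± 0.11 at 16 µM and -0.26 ± 0.045 at 32 µM, and the second at -0.29 ± 0.027, -0.30 ± 0.054 and -0.28 ± 0.14. The kilobase upstream of the start was at -0.10 ± 0.10, -0.11 ± 0.016 and -0.090 ± 0.14. In PEO1 the first kilobase was at -0.11 ± 0.16 without drug and -0.10 ± 0.033 at 16 µM. The second kilobase was at -0.056 ± 0.14 and -0.28 ± 0.043, with single libraries from -0.16 to 0.11 without drug and from -0.31 to -0.23 at 16 µM, so that these groups did not overlap. From the start of the canonical transcript the same step ran from -0.30 to 0.063 and from -0.42 to -0.20, with overlap. Each of these steps held 75 to 79 windows. Steps further into the genes also differed in PEO1, in both directions. From 2 to 3 kb after the gene start the ratio was -0.13 ± 0.14 without drug and 0.033 ± 0.17 at 16 µM. From 4 to 5 kb it was 0.13 ± 0.056 and -0.13 ± 0.11.

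**Figure D3:**
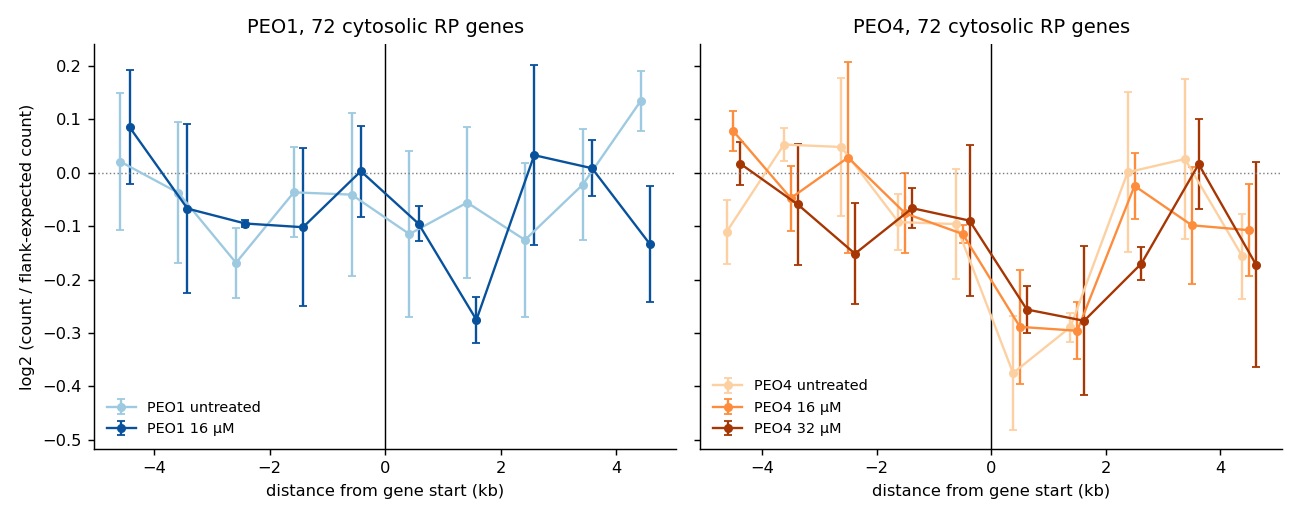
Log2 ratio to flanks at matched GC (vertical axis) in 1 kb steps of distance from the gene start (horizontal axis, kb, negative upstream) for the 72 genes, as group mean and SD of 3 libraries (points and bars), with PEO1 on the left and PEO4 on the right. In PEO4 the first kilobase lies between -0.38 and -0.26 in the 3 groups, and in PEO1 at -0.11 and -0.10.

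The start region, from 1 kb upstream to 1 kb downstream, had a median GC content of 53.5% over 158 windows, against 45.8% in the rest of the genes. Its ratio was -0.076 ± 0.13 in untreated PEO1 and -0.23 ± 0.041 in untreated PEO4. Over all protein-coding genes the start region was also low, at -0.043 ± 0.028 and -0.099 ± 0.014 in the same groups. The rest of those genes was at 0.044 and 0.041. In the ribosomal protein genes treated minus untreated in the start region was 0.030 in PEO1, 0.030 in PEO4 at 16 µM and 0.058 at 32 µM. Treated and untreated libraries overlapped each time. With the start of the canonical transcript the difference at 32 µM was 0.10 and those libraries did not overlap. Over all protein-coding genes treated minus untreated in the start region was 0.085, 0.061 and 0.10, and every treated library was above the untreated libraries of its line. In the rest of the ribosomal protein genes the difference was -0.11 in PEO1, from 0.093 ± 0.050 to -0.015 ± 0.019, with no overlap, and 0.0041 and -0.0092 in PEO4.

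Single genes differed between the untreated lines. Counts per gene entered the edgeR quasi-likelihood F test in 1 fit of all 15 libraries, with p-values adjusted by the Benjamini-Hochberg method over the 18419 genes with a mean count of at least 20. Of the 72 genes 70 entered, and RPS15, with a mean count of 17.7, did not. Between untreated PEO4 and untreated PEO1, 6 of the 70 genes passed an adjusted p of 0.05, 5 higher and 1 lower in PEO4, which is 8.57% of them beside 21.3% of all genes tested. At an unadjusted p under 0.05 there were 10, beside 32.2% of all genes. Without replicate 3 of untreated PEO4, 3 genes passed. The ribosomal protein genes gave few reads, with a median of the mean count of 73.4 against 398 over all genes. Their median biological coefficient of variation was 27.4%, against 14.5%. The median log2 difference was 0.13 over the 70 genes, with 47 above 0, and 0.010 over all genes.

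RPL38, a large subunit protein known for its part in translating Hox mRNAs in mice, had the highest log2 difference. It lies at chr17:72199721-72206794. The untreated PEO1 libraries had 3.13, 2.89 and 1.02 CPM over the gene (counts scaled to a common library size with TMM factors) and the untreated PEO4 libraries had 12.5, 8.74 and 11.3. The groups did not overlap, and the log2 difference was 2.20 ± 0.33 (SE), with an adjusted p of 1.7e-05 from edgeR. In the treated libraries RPL38 ran from 2.50 to 3.99 CPM in PEO1 and from 5.81 to 10.9 CPM in PEO4.

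RPL8, a large subunit protein near the centre that forms the peptide bond, had 2.15, 1.81 and 3.52 CPM in untreated PEO1 and 6.90, 7.80 and 8.17 CPM in untreated PEO4. Its log2 difference was 1.61 ± 0.32, with an adjusted p of 0.00044 from edgeR. RPS10, a small subunit protein mutated in some patients with Diamond-Blackfan anaemia, had 2.70, 3.50 and 0.831 CPM in untreated PEO1 and 8.26, 6.01 and 8.98 CPM in untreated PEO4, a log2 difference of 1.72 ± 0.37 with an adjusted p of 0.00098 from edgeR. In both genes every untreated PEO4 library was above every untreated PEO1 library. RPS10, at chr6:34385231-34393846, shares its windows with a read-through gene that runs into NUDT3, and reads of the pair cannot be told apart.

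The other 3 genes differed by less. RPL22, a large subunit protein lost in some leukaemias, went from 14.5 ± 2.35 to 22.5 ± 1.95 CPM (SD, n = 3), a log2 difference of 0.64 ± 0.19 with an adjusted p of 0.014 from edgeR. RPS7, a small subunit protein that can bind MDM2, went from 4.66 ± 1.09 to 7.56 ± 0.743 CPM, with 0.70 ± 0.25 and an adjusted p of 0.0499 from edgeR. RPL14, a large subunit protein at chr3:40498783-40510078, was the 1 gene lower in PEO4, from 15.8 ± 1.42 to 9.82 ± 1.35 CPM, with -0.68 ± 0.23 and an adjusted p of 0.031 from edgeR. RPL35A, a large subunit protein also linked to Diamond-Blackfan anaemia, came next downward with -0.53 ± 0.23 and did not pass, with an adjusted p of 0.11 from edgeR. Of 16 alternatives, leaving out single libraries included, RPS7 passed in 5, RPL22 and RPL14 in 11 each, and RPL38, RPL8 and RPS10 in 15 each.

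The flanks of these genes differed between the lines in the same direction. On the log2 scale of mean CPM per window, the flanks of RPL38 were 1.92 higher in untreated PEO4 and the gene 2.30 higher. For RPL8 the flanks differed by 1.90 and the gene by 1.70, and for RPS10 by 1.26 and 1.82. RPL22 had 0.68 and 0.72, RPS7 had 0.79 and 0.78, and RPL14 had -0.46 and -0.61. Of the 71 genes measured, 61 had flanks that were higher in PEO4 and 7 had flanks more than 1 higher. Besides RPL38, RPL8 and RPS10 these were RPS18 and RPL10A, near RPS10 on chromosome 6, with 1.37 and 1.25, and RPL35 and RPL12 on chromosome 9, with 1.38 and 1.15. The same counts were not made for the flanks of all genes, so they cannot be read as particular to these genes. They were also not matched for GC. With the GC curve of each library taken out, the median difference of the 70 genes tested went from 0.13 to 0.048. Over all genes it went from 0.010 to -0.022. Across the 71 genes the gene and flank differences had a Pearson r of 0.66, a description only, since all points share 6 libraries and neighbouring genes share flanks.

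**Figure D4:**
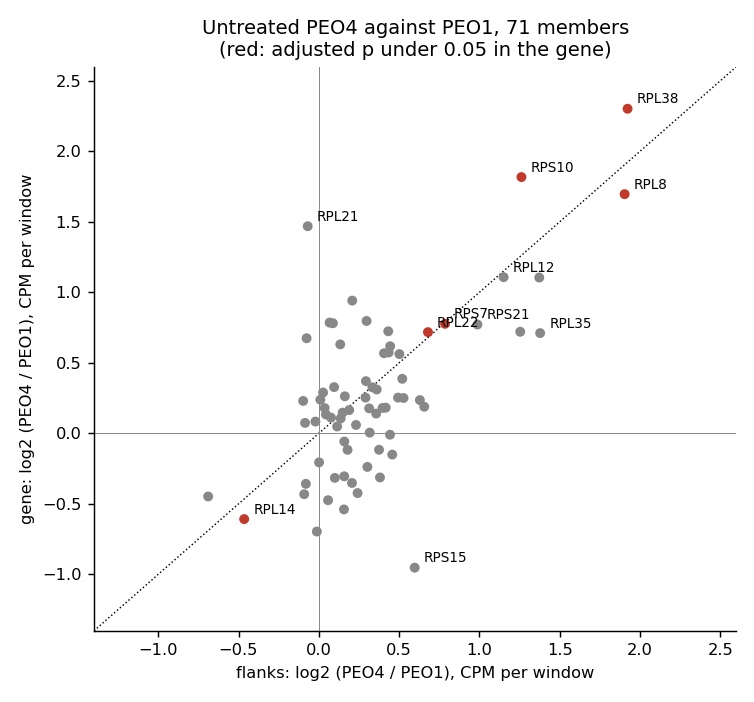
Log2 difference between untreated PEO4 and untreated PEO1 in mean CPM per window for the 50 kb flanks (horizontal axis) and for the gene itself (vertical axis), 1 point per gene for 71 genes, with the 6 genes that passed in red and equality as a dotted line. The red genes run along the line from RPL14, with -0.46 and -0.61, to RPL38, with 1.92 and 2.30.

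When each gene was fitted relative to its own flanks and to the GC curve of each library, 0 of the 70 genes passed in edgeR. At an unadjusted p under 0.05 there were 3, or 4.29%, beside 5.75% of all genes. The number past the adjusted threshold over all genes went from 3928 to 7, or 0.038%. DESeq2, without the flanks, called 8, or 11.4%, beside 23.6% of all genes. Relative to flanks the log2 difference was 0.43 for RPL38, 0.53 for RPS10 and -0.48 for RPL8, and the median over the 70 genes was -0.11, against -0.015 over all genes. RPL21, a large subunit protein, lay furthest above equality, with 1.47 for the gene and -0.069 for its flanks. It had 0.797, 0.663 and 1.21 CPM in untreated PEO1 and 1.66, 2.72 and 2.62 CPM in untreated PEO4, without overlap, and an adjusted p of 0.053 from edgeR. RPS15, at the other end, had -0.95 for the gene and 0.60 for its flanks, from few reads.

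Each gene was also set against its own flanks within the untreated libraries. From counts summed over the 6 libraries, 50 of the 70 tested genes lay below their flanks, or 71.4%, beside 50.2% of all genes. The median log2 ratio was -0.10, against -0.00064 over all genes. These sets were not matched for gene length. The start region, which was low over all genes too, made up 158 of the 823 windows of the 72 genes. Over all genes it made up 38336 of 1391127 windows. The part of gene length in the contrast was not tested. RPS15 was lowest, with a mean of -1.10 over the 6 libraries, but it had 3 windows and 3 to 22 reads per library, and single libraries ran from -3.25 to 0.35. RPL21, with the most pseudogenes, was at -0.87. Its PEO1 libraries had -1.79, -2.02 and -1.21 and its PEO4 libraries -0.33, -0.056 and 0.16, so that the lines did not overlap. RPL17, a large subunit protein at the exit of the peptide tunnel with 50 pseudogenes, was at -0.79 and below its flanks in all 6 libraries, from -1.16 to -0.43. Its windows are shared with a read-through gene.

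At the other end RPS21 was at 0.55, with single libraries from 0.093 to 0.88, from 2 windows and 24 to 74 reads per library. RPS15A, a small subunit protein, was at 0.41, from 0.052 to 1.11. RPL8 was at 0.33, from -0.079 to 1.00, and so lay on both sides of its flanks. In all, 6 of 71 genes were below and 4 above their flanks in each of the 6 libraries, beside 6.93% and 6.87% of all genes. Across the 71 genes the ratios in the 2 untreated lines had a Pearson r of 0.16. The mean ratio had an r of -0.32 with the number of pseudogenes, 0.24 with GC content and 0.24 with gene length, as descriptions over genes that share 6 libraries.

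After cisplatin no ribosomal protein gene passed the adjusted threshold in either line. In PEO1 at 16 µM 0 of 70 passed in edgeR, beside 0% of all genes, and 3 had an unadjusted p under 0.05, beside 6.05% of all genes. In PEO4 at 16 µM 0 passed, beside 0%, and 2 had an unadjusted p under 0.05, beside 2.63% of all genes. In PEO4 at 32 µM 0 passed, beside 0%, and 1 had an unadjusted p under 0.05, beside 6.31% of all genes. Between 32 and 16 µM in PEO4 0 passed, beside 0%, and 2 had an unadjusted p under 0.05, beside 2.48% of all genes. DESeq2 also called 0 of these genes in each of the 4 comparisons, with 3, 2, 3 and 2 at an unadjusted p under 0.05, beside 7.05%, 3.16%, 6.78% and 3.01% of all genes.

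RPL30, a large subunit protein, had the smallest p-value in PEO1. It had 39.4, 40.7 and 36.0 CPM without drug and 25.8, 31.0 and 27.5 CPM at 16 µM. The groups did not overlap, with a log2 difference of -0.46 ± 0.12 (SE) and an adjusted p of 0.63 from edgeR. In PEO4 it had 45.3, 43.7 and 48.4 CPM without drug, 40.1 to 51.4 CPM at 16 µM and 41.9 to 49.7 CPM at 32 µM. The log2 differences there were 0.016 ± 0.12 and 0.039 ± 0.12. RPL35, a large subunit protein near the tunnel exit, had 3.19, 2.41 and 4.35 CPM in untreated PEO1 and 2.04, 1.48 and 1.66 CPM at 16 µM, a log2 difference of -0.94 ± 0.40 with an adjusted p of 0.78 from edgeR. In the other direction RPS10 had 0.82 ± 0.38 and RPL21 0.98 ± 0.51, with adjusted p of 0.81 for both from edgeR. With 1 library left out at a time RPS10 ran from 0.42 to 1.23 and RPL21 from 0.31 to 1.38.

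RPS13, a small subunit protein, and RPL13, a large subunit protein, came first downward in PEO4 at 16 µM. RPS13 had 5.29, 3.66 and 4.33 CPM without drug and 1.38, 3.31 and 1.95 CPM at 16 µM, a log2 difference of -0.99 ± 0.38, and RPL13 had -1.12 ± 0.44, with adjusted p of 0.98 for both from edgeR. At 32 µM RPS13 had 2.57, 3.34 and 1.98 CPM, again below the 3 untreated libraries, with -0.75 ± 0.38. RPL22 and RPL5, whose product holds the 5S RNA and can bind MDM2, came first downward at 32 µM, with -0.45 ± 0.19 and -0.57 ± 0.28 and adjusted p of 0.74 for both from edgeR. Upward, RPL26, a large subunit protein, had 0.62 ± 0.51 at 16 µM and 0.57 ± 0.52 at 32 µM, and RPL17 had 0.50 ± 0.46 at 16 µM. From 16 to 32 µM RPL13 differed by 0.78 ± 0.45, RPL35A by -0.60 ± 0.24 and RPL35 by -0.71 ± 0.38, and none passed. With 1 library left out at a time RPL26 ran from 0.32 to 0.99 at 16 µM and from 0.28 to 0.82 at 32 µM, RPL17 from -0.072 to 0.73 and RPL5 from -0.88 to -0.36. Between the doses RPL13 ran from 0.17 to 1.07 and RPL35 from -1.07 to -0.42.

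**Figure D5:**
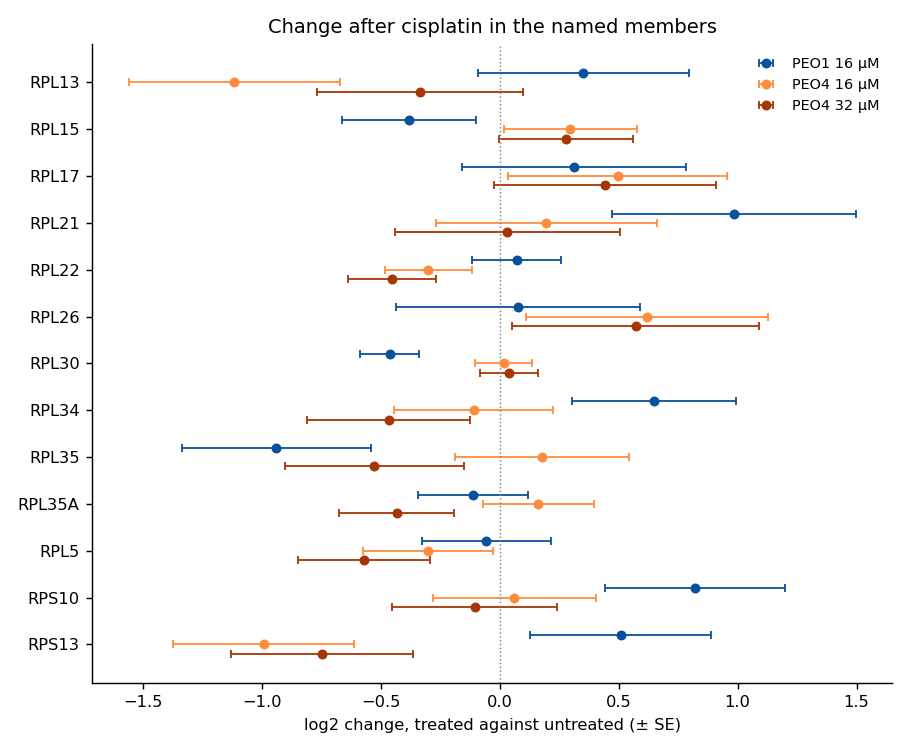
Log2 difference of treated against untreated libraries with its SE (horizontal axis) for 13 genes named in the drug comparisons (vertical axis), with PEO1 at 16 µM in blue, PEO4 at 16 µM in light orange and PEO4 at 32 µM in dark orange. RPL30 lies at -0.46 in PEO1 and at 0.016 and 0.039 in PEO4, and RPS13 lies at 0.51 in PEO1 and at -0.99 and -0.75 in PEO4.

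The response difference, treated minus untreated in PEO4 less the same in PEO1, asks whether the resistant and the sensitive line differ in where adducts are found. With PEO4 at 32 µM 0 of 70 genes passed in edgeR, beside 0% of all genes, and 3 had an unadjusted p under 0.05, beside 8.26% of all genes. With PEO4 at 16 µM 0 passed, beside 0%, and 4 had an unadjusted p under 0.05, beside 7.18% of all genes. DESeq2 called 0 in both, with 4 and 4 at an unadjusted p under 0.05, beside 9.09% and 8.19% of all genes. RPL30 came first upward in both, with 0.50 ± 0.17 at 32 µM and 0.48 ± 0.17 at 16 µM, and adjusted p of 0.60 and 0.68 from edgeR. RPS13 came first downward in both, with -1.26 ± 0.54 and -1.50 ± 0.54, and adjusted p of 0.60 and 0.68 from edgeR. Next at 32 µM were RPL15 with 0.66 ± 0.40 and RPL34 with -1.12 ± 0.49, and at 16 µM RPL35 with 1.12 ± 0.54 and RPL13 with -1.47 ± 0.63, all of the large subunit. RPL15 ran from 0.40 to 0.86 with 1 library left out and was at 0.093 over the canonical transcript. Both response differences use the same PEO1 libraries and the same untreated PEO4 libraries.

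The median response difference over the 70 genes was -0.12 at 32 µM, with 44 genes below 0, and -0.17 at 16 µM, with 42 below 0. Over all genes the medians were -0.012 and 0.0047. With the GC curve of each library taken out, the medians over the 70 genes were -0.055 and -0.059, against -0.021 and -0.019 over all genes. With the flanks taken out as well they were 0.0068 and -0.0027. The range between the quartiles was wider than that of all genes and ran from -0.53 to 0.13 at 32 µM against -0.27 to 0.19.

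Other genes of the translation machinery also had their calls between the untreated lines, beside 21.3% of all genes tested. These calls were made without the flanks, and relative to GC and flanks 7 of all genes passed. Of 75 mitochondrial ribosomal protein genes tested, 16 were higher and 4 lower in PEO4, or 26.7%. Of 67 translation factor genes, 8 were higher and 9 lower, or 25.4%, and of 53 ribosome biogenesis factors 7 were higher, or 13.2%. Of 11 autosomal ribosomal protein genes outside the symbol rule, RPL7L1, a paralogue of RPL7, was higher with a log2 difference of 1.05 ± 0.28. RPSA, a small subunit protein also known as a laminin receptor, was lower with -0.72 ± 0.17, as were the paralogues RPL39L with -0.87 ± 0.10 and RPL22L1 with -0.92 ± 0.30. In the 6 comparisons that involve cisplatin edgeR called 0 genes of these 4 lists, beside 0% of all genes. At an unadjusted p under 0.05 a list had 0 to 7 genes, beside 2.48% to 8.26% of all genes. RPL10, RPL36A, RPL39 and RPS4X, on the X chromosome, were not analysed here.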

How the data were processed

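Pt-exo-seq was carried out on 15 libraries in 5 groups of 3. The authors ran BBDuk on the 100 bp single-end reads to trim them and Bowtie2 to place them on hg19, took out ENCODE blacklisted regions and removed duplicates with Picard, and they deposited raw counts in windows of 1000 bp at steps of 900 bp. The tool versions and the handling of reads with several alignments are not given in the sources used here. The 24 chromosome ends of the table equal those of GRCh37. Windows with no read in any library were left out, as were sex chromosomes.

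Counts were summed over the windows, by midpoint, from 1 kb upstream of each gene start to its end, and genes with a mean count of at least 20 were tested with edgeR 4.0.16 (TMM, quasi-likelihood F test) under R 4.3.3. Standard errors are the log2 change over the root of F. The pooled ratio used flank windows within 50 kb in GC strata of 2 points with at least 20 windows. DESeq2 1.42.0 and limma 3.58.1 were alternatives, as were other flanks, spans, filters, scalings and GC offsets. The edgeR script was tested on simulated data for the response difference at 32 µM. It recovered 52% of 2-fold and 24.2% of 1.5-fold changes at an adjusted p under 0.05. The simulation drew on all genes tested, with a median of the mean count of 398, against 73.4 in the ribosomal protein genes. Depth limits what genes of few reads can show. The named genes were, in each comparison, the pair with the smallest p-value in each direction, and the 3 genes at each end of the ratio to own flanks. The other genes past the threshold, those with flank differences above 1 and the split by pseudogenes were added after the values were seen. Some items that this rule names are not reported here. The members and lists were chosen with earlier results of these data known.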

Additional observations from a re-analysis of the deposited data

Results flagged for a closer look

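In the exon windows of the ribosomal protein genes the response of PEO4 at 32 µM minus that of PEO1 at 16 µM was 0.089 on the log2 scale. It is listed because all 3 treated PEO1 libraries lay below the untreated mean of their line, from -0.10 to -0.023, and all 3 PEO4 libraries lay above theirs, from 0.0026 to 0.070. The difference itself was not tested. The untreated libraries spread over -0.033 to 0.038 around their mean in PEO1 and over -0.051 to 0.051 in PEO4. In windows with fewer exon bases treated minus untreated was -0.11 in PEO1 and -0.026 in PEO4 at 32 µM. Over all windows of the genes it was -0.085 and 0.0039. A similar difference between the lines was thus found outside the exon windows.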

How the results depend on the processing

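The level of the pooled ratio moved by more than the spread between libraries under several settings. With flank windows outside genes untreated PEO1 was at 0.17 and PEO4 minus PEO1 at -0.20. With own flanks and the GC curve these were -0.021 and -0.031. Windows with few exon bases gave 0.16 in untreated PEO1 and 0.070 in untreated PEO4. Canonical transcript spans gave -0.064, -0.16 and, for the PEO1 difference with cisplatin, -0.032. Equal weight per gene gave -0.11, -0.20 and, for the response difference at 32 µM, 0.035. Canonical spans, equal weights and leaving out RPS9 were added after the data were seen, and the cause of these moves was not tested. With 1 library left out at a time, the pooled ratio ran from 0.043 to 0.080 in untreated PEO1 and from -0.068 to -0.042 in untreated PEO4, and PEO4 minus PEO1 from -0.13 to -0.10. Treated minus untreated ran from -0.10 to -0.063 in PEO1, -0.022 to 0.041 in PEO4 at 16 µM and -0.0075 to 0.019 at 32 µM, and -0.037 to 0.026 between the doses. The response difference ran from 0.067 to 0.10 at 32 µM and 0.063 to 0.13 at 16 µM. The number of genes called between the untreated lines was 0 relative to GC and flanks, where RPL8 had -0.48 and RPL35A 0.19, both with the sign turned. It ran from 3 to 6 with 1 library left out, the lowest without PEO4 untreated replicate 3. RPL17 in PEO4 at 16 µM ran from -0.072 to 0.73, the lowest without replicate 1 at 16 µM. In the response differences limma on log2 ratios to the untreated mean, which leaves out the error of that mean, called 0 genes, with 20 and 12 at an unadjusted p under 0.05, or 28.6% and 17.1%, beside 16.6% and 15.2% of all genes.

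Of 30 pairs of libraries with the same replicate number, 7 had a correlation of their deviations over 0.1, in a range of -0.43 to 0.35. Their mean correlation was -0.039, against 0.019 for pairs with different numbers. With 3 libraries per group this cannot tell whether the numbers pair the libraries, and the labels do not say. The main fit took the libraries as unpaired. The replicate block called 6 genes between the untreated lines, beside 19.4% of all genes, and 8 with a GC offset as well, beside 22.5%, and 0 in the other 6 comparisons.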
